A study of Mus musculus with 27 samples.

Results

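The comparison described here sets 7 mammary tumours with high levels of mitotic messenger RNAs against 8 with low levels, out of 27 tumours whose RNA was hybridised to Illumina mouse BeadChips. All 27 grew from fragments of Trp53-null mammary gland, without the p53 tumour suppressor, placed in inguinal glands of BALB/c mice whose own ducts there had been removed at 3 weeks of age. The host was 5 weeks old at grafting for 15 tumours (juvenile hosts, J1 to J15) and 10 weeks old for 12 (adult hosts, A1 to A12). No other treatment is labelled. The grafted p53-null tissue is shared by every group, so nothing here compares tumours with and without p53, and the labels do not say whether each tumour came from its own mouse.

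The tumours were chosen from the arrays themselves. The score was the mean log2 intensity of 16 genes of mitosis, those detected among 25 markers, of which 7 were detected on too few arrays and 2 (Mki67 and Ccnb1) have no probe under that name in the annotation used. Tumours with a score of 9.2 or more were called fast-cycling (A8, J6, A11, J15, J8, J5 and J14) and those with 8.5 or less slow-cycling (A2, J13, J12, J4, A4, A5, A9 and A7). The 12 between the thresholds were in neither group. These are working names, since the arrays measure messenger RNA and not the length of a cell cycle or the share of dividing cells.

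Dividing cells transcribe their cycle genes in waves. E2F factors open the G1 to S wave of replication genes, and later the MuvB core complex with B-Myb and FoxM1 drives the G2 and M wave of spindle and kinetochore genes, in part through a short promoter element called CHR that often lies near CCAAT boxes bound by NF-Y. In resting cells the same MuvB core, joined to E2F4 and p130, keeps both waves low. In the normal mammary gland division follows ovarian hormones and the paracrine signals they set off.

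To show what the promoters of the most clearly higher genes look like, the 250 bases before the start of 4 of them are printed, from RefSeq on GRCm38.p6, with searched motifs in capitals. They are the 4 with the smallest p among higher genes that had a promoter entry. Each is given 5′ to 3′ on the strand of its gene. The motifs searched on both strands were the CHR element TTTGAA, the NF-Y box CCAAT, and 4 motifs like those bound by E2F factors, namely TTCCCGC with the variant TTGGCGC, the variant TTCGCGC and the variant TTGCCGC.
Smc2, chr4:52438971-52439220, plus strand: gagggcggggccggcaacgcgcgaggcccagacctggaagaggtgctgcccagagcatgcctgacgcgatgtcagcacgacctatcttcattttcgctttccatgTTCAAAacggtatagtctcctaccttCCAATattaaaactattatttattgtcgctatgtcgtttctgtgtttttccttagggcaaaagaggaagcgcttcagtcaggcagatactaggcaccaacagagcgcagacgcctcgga
Mcm10, chr2:5012792-5013041, minus strand: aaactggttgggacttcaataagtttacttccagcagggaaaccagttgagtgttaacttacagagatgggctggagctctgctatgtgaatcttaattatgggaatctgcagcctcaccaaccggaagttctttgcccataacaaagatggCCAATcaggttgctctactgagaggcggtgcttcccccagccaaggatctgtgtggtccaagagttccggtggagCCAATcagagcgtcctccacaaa
Ncaph, chr2:127133955-127134204, minus strand: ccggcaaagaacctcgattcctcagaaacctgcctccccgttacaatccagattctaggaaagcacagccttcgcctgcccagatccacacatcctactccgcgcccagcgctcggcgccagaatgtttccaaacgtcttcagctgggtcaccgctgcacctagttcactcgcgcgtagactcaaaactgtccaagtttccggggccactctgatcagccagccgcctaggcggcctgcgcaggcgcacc
Ehmt1, chr2:24919610-24919859, minus strand: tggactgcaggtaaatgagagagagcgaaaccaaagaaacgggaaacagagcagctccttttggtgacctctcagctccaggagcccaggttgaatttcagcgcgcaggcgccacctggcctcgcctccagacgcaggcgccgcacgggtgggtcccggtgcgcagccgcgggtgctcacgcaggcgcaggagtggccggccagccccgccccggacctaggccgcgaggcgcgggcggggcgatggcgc
The Smc2 promoter held 1 CHR on the minus strand, 145 to 140 bases before the start, printed as its reverse complement TTCAAA, and 1 CCAAT 119 to 115 bases before it. The Mcm10 promoter held 2 CCAAT boxes, 98 to 94 and 23 to 19 bases before the start. The windows of Ncaph and Ehmt1 held none of the searched letters.

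**Figure D1:**
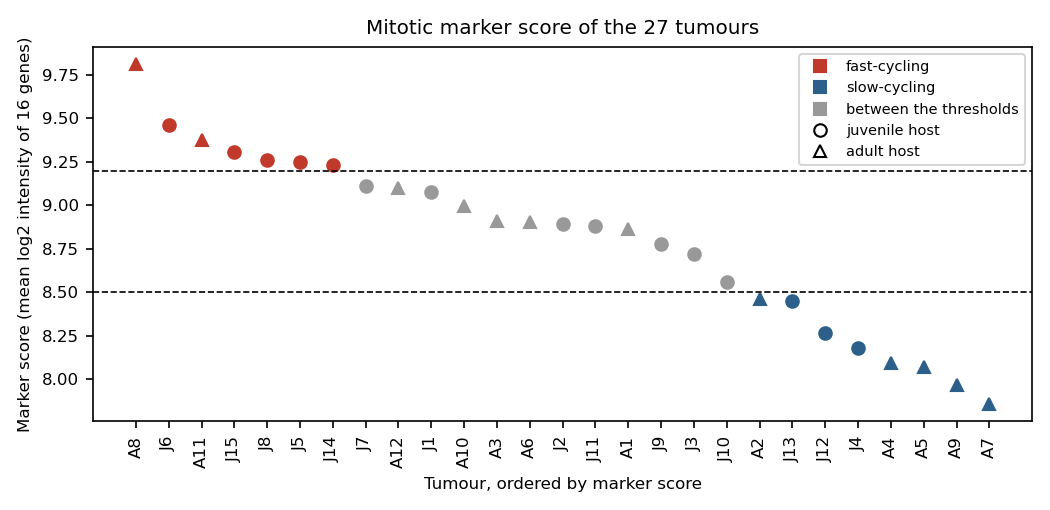
Marker score (mean log2 intensity of the 16 detected marker genes) of each tumour in falling order, with circles for juvenile and triangles for adult hosts and dashed lines at the thresholds of 9.2 and 8.5. Scores ran from 9.81 in A8 to 7.86 in A7, and tumours J7 at 9.11 and J10 at 8.56 lay just outside the 2 groups.

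The scores formed a continuum rather than 2 separate clouds. Inside the upper threshold the lowest tumour was J14 at 9.23, and just outside it was J7 at 9.11. At the lower threshold A2 lay inside at 8.46 and J10 outside at 8.56. A8 stood highest at 9.81, 0.35 above the next tumour, and A7 lowest at 7.86. The markers contributed unequally, and their values describe the choice and are not a result. Tpx2, a spindle assembly factor, averaged 7.71 in fast-cycling and 5.59 in slow-cycling tumours, and the mitotic kinase Plk1 11.21 and 9.35. Top2a, the topoisomerase that untangles sister chromatids, averaged 9.45 and 8.99, and Cdk1, the kinase that starts mitosis, 9.84 and 9.22. The slow-cycling tumours of Cdk1 ran from 7.60 to 10.53, beyond the fast-cycling range of 9.39 to 10.23, so a low score did not mean that each marker was low.

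Some features of the libraries moved with the groups or set tumours apart. Fast-cycling tumours had 18296 ± 458 detected probes (SD, n = 7) and slow-cycling ones 19341 ± 1056 (SD, n = 8), of 45281 on the array (two-sided exact permutation p = 0.0322), and the part of this in the results was not tested. The permutation took no account of the chip. The slow-cycling tumours with most detected probes, A4 (21050), A5 (20359) and A2 (19914), were on chips 1 and 3, which carried no fast-cycling tumour. On the other chips slow-cycling tumours had 18185 to 19564 and fast-cycling ones 17867 to 19204. None of the 15 tumours had an Eef2 value (a translation elongation factor) below 8 on the log2 scale, against 4 of the 12 between the thresholds. The slow-cycling tumours J4 and A5 stood apart in tissue markers. The mean of 16 epithelial keratin and junction genes was 5.76 in J4 and 5.30 in A5, against 9.54 to 10.91 in the other 13, and that of 13 endothelial genes was 10.92 and 11.59, against 7.22 to 9.58. In J4 the mean of 2 skeletal muscle genes reached 11.89. Counts are therefore also given without J4 and A5. The number of arrays limits the precision.

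Host age, the study's labelled factor, was spread over both groups. The fast-cycling tumours came from 5 juvenile and 2 adult hosts and the slow-cycling ones from 3 juvenile and 5 adult hosts (two-sided Fisher's exact test, p = 0.315). Of the 13 tumours above the median score of 8.90 over all 27, 7 were of juvenile and 6 of adult hosts.

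Outside the markers, 472 of 19315 tested probes (2.44%) were higher and 207 (1.07%) lower in fast-cycling tumours, at an adjusted p under 0.05 by limma over all tested probes. With 1 probe per gene, the brightest detected, 226 of 10742 genes (2.1%) were higher and 109 (1.01%) lower. Every fast-cycling tumour lay above every slow-cycling one for 77 genes (0.717%) and below for 23 (0.214%). Differences of the genes called ran from 0.56 to 2.20 on the log2 scale on the higher side and from -0.61 to -2.32 on the lower. Of the probes called, 75 higher and 39 lower ones have no symbol in the annotation used and could not be checked against the markers. The probe with the smallest p of all, ILMN_1217929, is one of them and is named for that reason after its values were seen, at 8.16 to 8.87 in fast-cycling and 5.82 to 6.75 in slow-cycling tumours (2.33 ± 0.18, adjusted p = 8.91e-06 by limma). Genes transcribed with the markers in the same cycle phase had to follow the score to some degree, so their calls describe how far the choice reached and are no separate support for it. Without J4 and A5 the counts were 327 higher and 145 lower probes, 275 and 104 of them shared with the main ones. Without J15 they were 194 and 55, with 192 and 55 shared. The counts were 161 and 75 with the chip as a fixed block, but only 123 and 39 of these were among the main calls. They were 205 and 75 with host age as a covariate, with 197 and 65 shared. Among the tumours compared no chip carried both host ages, so these fits are not separate checks.

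Mitotic genes other than the markers were higher as a group. Of 58 tested, 34 rose in fast-cycling tumours and none fell, against 2.1% and 1.01% of all genes. A positive difference was seen in 56, and the median difference was 1.00 on the log2 scale against 0.02 over all genes. Without J4 and A5, 27 of the 58 were called higher, against 159 of all 10742 genes.

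Smc2, a core ATPase of condensin, the complex that folds chromosomes for mitosis, lay at 6.03 at the lowest, 6.66 at the median and 7.43 at the highest in fast-cycling tumours, and at 4.41, 4.82 and 5.75 in slow-cycling ones. The groups did not overlap, A9 being the highest of the slow-cycling tumours and J5 the lowest of the fast-cycling ones. The difference was 1.82 ± 0.26 (SE, log2), 3.54-fold, with a limma adjusted p of 0.00344. The Smc2 probe was dim and was detected on 7 of 7 fast-cycling but 5 of 8 slow-cycling arrays. Its partner Smc4 ran from 6.62 to 7.76 in fast-cycling and from 4.54 to 5.73 in slow-cycling tumours, a difference of 1.78 ± 0.23 (limma adjusted p = 0.00157), but a second, dimmer Smc4 probe differed by 0.24 ± 0.19 and was not called. Ncaph, the kleisin subunit that bridges the pair in condensin I, ran from 9.72 to 10.22 and from 8.14 to 9.30, again without overlap, and both of its probes were called (1.26 ± 0.17 and 1.58 ± 0.19). Of the other condensin subunits in the list, named after their values were seen, Ncapg2 differed by 1.04 and was called (adjusted p = 0.0454 by limma), and Ncapd2 by 0.56 and was not (adjusted p = 0.267).

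Ndc80, which couples kinetochores to microtubules, had a lowest, median and highest value of 7.95, 8.34 and 8.74 in fast-cycling tumours and 6.66, 7.12 and 7.68 in slow-cycling ones, a difference of 1.21 ± 0.18 (limma adjusted p = 0.00398). J4 and A5 were its highest slow-cycling tumours, at 7.68 and 7.56. Cenpp, a part of the constitutive centromere network, differed by 1.20 ± 0.18 and showed no overlap either. The kinesin Kif15, a spindle motor, had values of 8.57 to 9.51 against 5.87 to 8.23, with A5 the lowest, and differed by 1.87 ± 0.31. Kif20b, a kinesin of late mitosis and cytokinesis, differed by 1.79 ± 0.27. Cdca3, a trigger of mitotic entry, was 10.47 to 11.82 in fast-cycling tumours, with A8 alone above 10.90, and 8.52 to 9.98 in slow-cycling ones. Both of its probes were called, with differences of 1.63 ± 0.24 and 1.64 ± 0.25.

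Replication genes had a smaller median difference. All 44 tested S phase genes had a positive difference, with a median of 0.66, yet 12 passed the threshold, against 2.1% of all genes. Mcm10, which helps start the replicative helicase, was 9.45 at the lowest, 9.65 at the median and 10.07 at the highest in fast-cycling tumours, against 7.69, 8.33 and 8.85. Its difference of 1.38 ± 0.18 had an adjusted p of 0.00157 by limma, and a dimmer second probe differed by 0.79 ± 0.28 without passing (adjusted p = 0.115). Gins1, of the GINS part of the same helicase, had a median of 8.68 against 7.32, with no fast-cycling tumour as low as the highest slow-cycling one at 7.84, and differed by 1.49 ± 0.25. Pclaf, a PCNA-binding factor, differed by 1.75 ± 0.26, and J6 at 6.34 lay just above the highest slow-cycling tumour, J12 at 6.31. Rfc5, of the clamp loader, differed by 1.26 ± 0.23, while its other, dim probe differed by -0.06 ± 0.26. For Cdc6, which loads the helicase, J4 reached 7.47, above the lowest fast-cycling tumour J14 at 7.10, and the difference was 1.21 ± 0.25.

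The sliding clamp Pcna and the helicase subunit Mcm2, both in wide use as proliferation markers, did not pass the threshold. Pcna was 5.67 ± 0.49 (SD, n = 7) against 4.98 ± 0.36 (SD, n = 8), with an adjusted p of 0.0976 by limma. The Pcna probe was dim, at 4.377 to 6.355 over the 15 tumours, and was detected on 24 of all 27 arrays. Mcm2 was 9.61 ± 0.46 (SD, n = 7) against 8.85 ± 0.38 (SD, n = 8), with an adjusted p of 0.0701 by limma. With the chip as a fixed block 4 of the 44 S phase genes were called, and with host age as a covariate 5. In those fits 83 and 95 of all 10742 genes were higher.

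Among 19 regulators of the G1 to S step, 3 rose and none fell, against 2.1% and 1.01% of all genes. E2f1, the transcription factor that opens the S phase wave, was 9.59, 9.94 and 10.28 (lowest, median, highest) in fast-cycling tumours, against a median of 8.94 and a highest value of 9.37 in slow-cycling ones. The groups did not overlap, with a difference of 0.92 ± 0.17, 1.90-fold, and an adjusted p of 0.00899 by limma. E2f3, a related activator, differed by 1.11 ± 0.28 with overlap, since A5 reached 7.92 and J5 and J14 were at 7.53. Lin54, the MuvB subunit that binds the CHR element, differed by 0.79 ± 0.19, while its second probe differed by 0.14 ± 0.23. The calls of E2f3 and Lin54 ended without 9 and 8 of the 15 tumours in turn. The cyclins that act upstream were not called. Ccnd1, cyclin D1, averaged 13.30 ± 0.83 (SD, n = 7) and 13.46 ± 0.76 (SD, n = 8), and Ccne1, cyclin E1, 7.13 ± 0.64 and 6.19 ± 0.69 with an adjusted p of 0.114 by limma. The phosphatase Cdc25a, at 8.28 against 7.48, had an adjusted p of 0.0703. Myc was 7.46 ± 0.46 and 7.00 ± 0.41 (adjusted p = 0.252 by limma).

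The brakes on the cycle gave 1 call. Of 17 inhibitor and quiescence genes, none rose and 1 fell, against 2.1% and 1.01% of all genes, and the median difference was -0.19. The gene that fell was Klf4, a factor of differentiation and growth arrest, with 5.55, 5.91 and 6.85 in fast-cycling tumours and 6.40, 7.39 and 8.35 in slow-cycling ones. A8, the tumour with the highest score, had the highest fast-cycling value of Klf4. The difference was -1.34 ± 0.31, the adjusted p by limma 0.0295, and the 2 other probes differed by -1.10 ± 0.30 and -0.83 ± 0.37 without passing. The Klf4 call ended in 19 of 38 other settings, among them the chip as a fixed block and host age as a covariate. It also ended without J4 and A5 (-1.27, adjusted p = 0.0645 by limma). Cdkn1a, the p21 inhibitor that p53 induces, averaged 8.94 ± 0.58 and 9.29 ± 0.94, a difference of -0.36 ± 0.38. The difference of the retinoblastoma gene Rb1 was 0.41 ± 0.40, and that of Cdkn2a, which encodes p16 and p19Arf, -0.32 ± 0.36. At other probes Rb1 differed by -0.265 ± 0.373 and Cdkn2a by 0.13 ± 0.334 and -1.162 ± 0.658, none called. Cdkn1b, the p27 gene, differed by 0.58 ± 0.26 (adjusted p = 0.201 by limma), Cdkn2b by 0.12 ± 0.31 and Cdkn1c by -0.77 ± 0.99. Values of Cdkn1c ran from 6.29 to 13.41 over the 15 tumours, with J13, A8 and J15 highest. The redox regulator Txnip differed by -1.01 ± 0.41 (adjusted p = 0.161).

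Of 15 tested p53 target genes none was called. Mdm2, the ligase that degrades p53 and a target of it, was 10.29 ± 0.24 (SD, n = 7) and 10.84 ± 0.46 (SD, n = 8) with an adjusted p of 0.136 by limma. Its second probe differed by 0.08 ± 0.23. Trp53inp1, another target, differed by -0.97 ± 0.33 (adjusted p = 0.102). The list's median difference was -0.24. Trp53 itself has no probe under that name in the annotation used and was not analysed here.

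**Figure D2:**
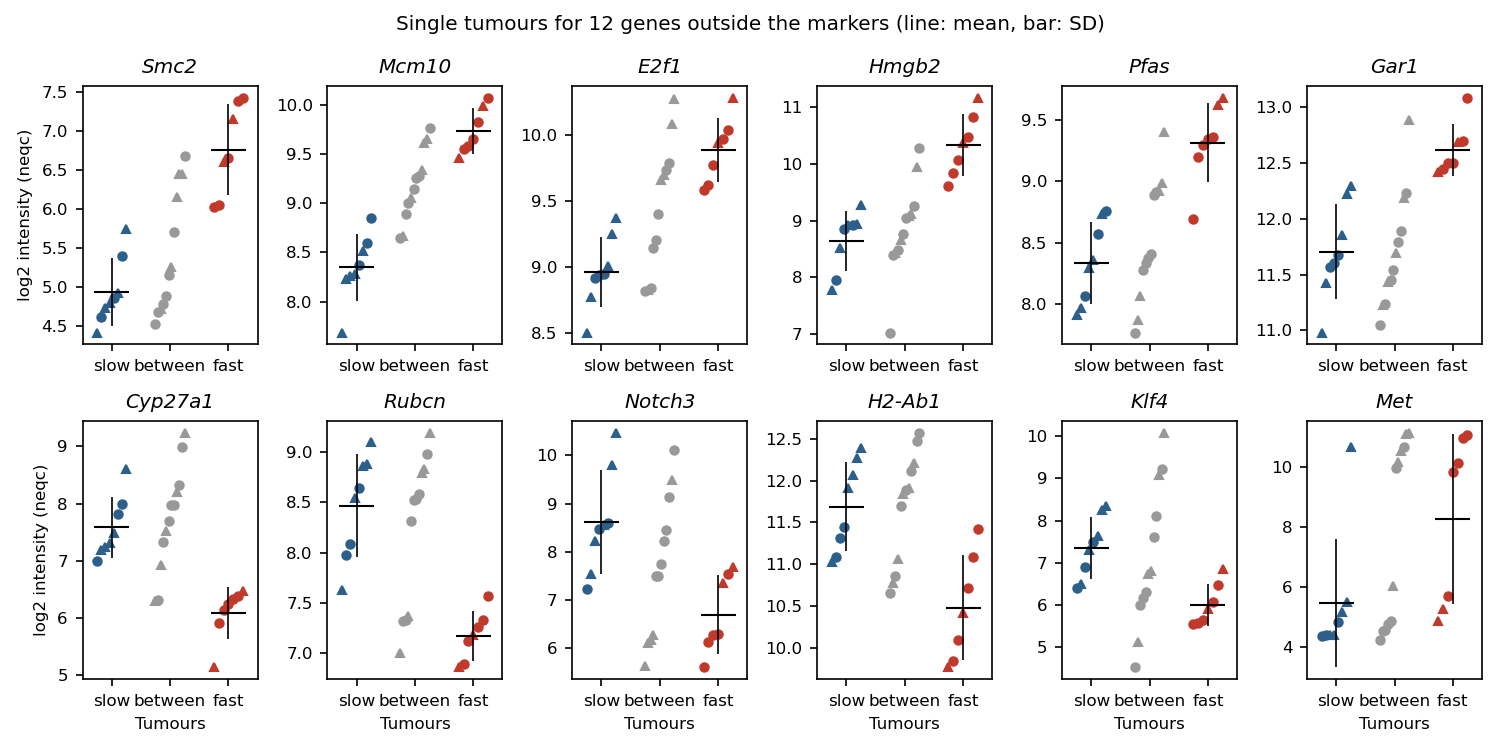
Log2 intensity after neqc of 12 genes outside the markers in slow-cycling tumours, tumours between the thresholds and fast-cycling tumours (circles juvenile, triangles adult hosts), with mean and SD for the 2 groups compared. Smc2, Mcm10, E2f1, Hmgb2 and Gar1 are higher and Cyp27a1 and Rubcn lower without overlap of the groups, while Met splits the fast-cycling tumours into 4 high and 3 low.

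Of 18 chromatin and nuclear envelope genes 2 rose, against 2.1% of all genes, with a median of 0.51. Hmgb2, a DNA-bending protein of proliferating cells, was 9.61, 10.36 and 11.16 against 7.78, 8.88 and 9.27, a difference of 1.69 ± 0.27 (adjusted p = 0.00489 by limma). Cbx5, the heterochromatin protein HP1 alpha, differed by 1.05 ± 0.27, a call that ended without any of 12 of the 15 tumours in turn. Ezh2, the methyltransferase of Polycomb complex 2, was 10.02 ± 0.69 and 8.72 ± 0.80 and missed the threshold (adjusted p = 0.0563 by limma). A dim second Ezh2 probe differed by 0.28 ± 0.22. Ehmt1, a histone H3 lysine 9 methyltransferase, had the smallest p of all named genes. Its probe was 6.06 to 7.12 in fast-cycling and 4.63 to 5.49 in slow-cycling tumours, a difference of 1.57 ± 0.19, but a second Ehmt1 probe differed by -0.23 ± 0.17, so the gene's direction rests on 1 probe.

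Against 2.1% higher over all genes, nucleotide synthesis gave 2 higher genes of 18, both of the purine pathway. Ppat, its first committed enzyme, ran from 7.69 to 8.82 against 6.36 to 7.79 and differed by 1.17 ± 0.25, with J13 the slow-cycling tumour inside the fast-cycling range. Pfas, a later enzyme, differed by 0.98 ± 0.19, while a dim second probe differed by 0.00 ± 0.16. Gart, of the same pathway, differed by -0.35 ± 0.27 and the pyrimidine gene Umps by 0.79 ± 0.26, neither called. In ribosome biogenesis, 1 of 18 genes was called and the median was 0.52. That gene was Gar1, of the particles that modify ribosomal RNA, at 12.42 to 13.09 against 10.98 to 12.29 (0.92 ± 0.20 and 1.73 ± 0.33 for its 2 probes). Without J15 the call of its brighter probe ended (adjusted p = 0.0548). With the chip as a fixed block none of the calls of Ppat, Pfas and Gar1 held, and chips 1 and 3 carry slow-cycling tumours but no fast-cycling one. Ncl, nucleolin, was 9.87 and 8.79 and missed the threshold (0.0591), although its second probe passed (1.57 ± 0.36, adjusted p = 0.0272). Ribosomal protein genes themselves had a median difference of 0.07, oxidative phosphorylation genes 0.10 and glycolysis genes 0.22. Pgam1, phosphoglycerate mutase, was the only glycolytic gene called (0.78 ± 0.20, 1 of 11), a call that ended without J4 and A5. Recombination and checkpoint genes had a median of 0.51 with no call of 15, the nearest being Fancd2 of the Fanconi pathway (0.90 ± 0.25, adjusted p = 0.0538) and Palb2, the partner of Brca2 (0.67 ± 0.19, adjusted p = 0.0607). A dim second Fancd2 probe differed by -0.004 ± 0.235.

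**Figure D3:**
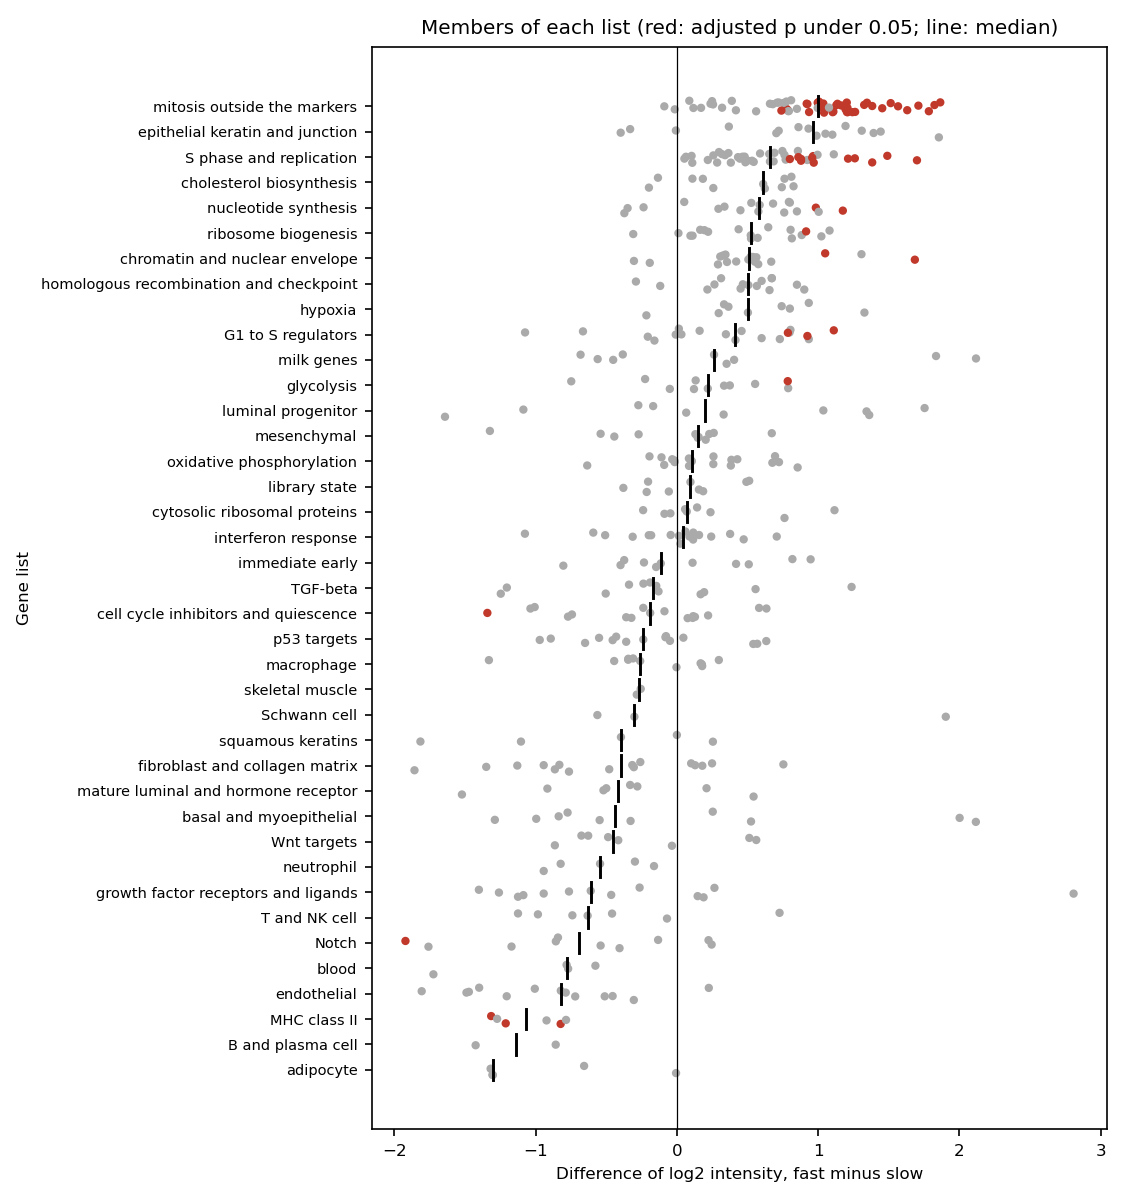
Difference of log2 intensity, fast-cycling minus slow-cycling, for each tested member of the lists, ordered by the list median (black line), with genes at an adjusted p under 0.05 in red. Calls gather in the mitosis list (34 of 58) and the S phase list (12 of 44), whereas the MHC class II list holds 3 of 6 on the lower side. Over all 10742 genes 2.1% were called higher and 1.01% lower.

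On the lower side the genes called belonged to no single list. Cyp27a1, the mitochondrial sterol 27-hydroxylase, was 5.14, 6.24 and 6.48 (lowest, median, highest) in fast-cycling and 7.01, 7.41 and 8.61 in slow-cycling tumours, with A11 lowest and A5 highest. The groups did not overlap, the difference was -1.49 ± 0.26 and the adjusted p by limma 0.00686. Of its 2 other probes 1 was called (adjusted p = 0.0277) and 1 was not (-0.48 ± 0.26). Rubcn, the Rubicon inhibitor of autophagosome maturation, was 6.86, 7.18 and 7.57 against 7.63, 8.59 and 9.10, a difference of -1.29 ± 0.22. Acox3, a peroxisomal acyl-CoA oxidase, differed by -1.34 ± 0.23 at 1 probe and by -0.11 ± 0.18 at another.

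Pld2, a phospholipase D, differed by -1.53 ± 0.25 and Plcd3, a phospholipase C, by -1.68 ± 0.31. In both, J14 had the highest fast-cycling value (7.08 and 7.31), above the lowest slow-cycling ones (6.90 in A7 and 7.25 in J4). Agap3, an Arf GTPase-activating protein, ran from 5.76 to 6.40 against 6.97 to 8.79 and differed by -1.57 ± 0.24, with its second probe also called (-1.36 ± 0.31). Als2cl, a Rab5-binding protein, differed by -1.16 ± 0.22 but was detected on 2 of 7 fast-cycling arrays. Sdf4, a calcium-binding Golgi protein, differed by -1.40 ± 0.24. Map1b, a microtubule-associated protein, ran from 5.99 to 8.29 against 8.59 to 10.06 without overlap (-1.83 ± 0.32), while its 3 other probes differed by -1.19, -0.56 and 0.21 and none was called.

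The largest differences were wider in spread. Slc24a3, a sodium, potassium and calcium exchanger, was 4.34, 5.08 and 7.25 against 5.61, 7.70 and 8.98, a difference of -2.32 ± 0.51 (adjusted p = 0.0238 by limma), with A8 and J14 at 6.60 and 7.25 and the other fast-cycling tumours at 5.09 or less. It was detected on 4 of 7 fast-cycling arrays. Arrb1, beta-arrestin 1, differed by -2.27 ± 0.43, and its 4 other probes by -0.77 to -1.14 without passing. Hdac7, a class IIa histone deacetylase with a known role in vessel endothelium, differed by -2.09 ± 0.43, with A5, A2 and J4 highest (10.87, 9.80 and 9.58). The amino acid transporter Slc1a4 differed by -1.99 ± 0.50 and Sdcbp2, a syntenin, by -2.01 ± 0.54. Those calls were less stable, that of Sdcbp2 ending in 34 of 38 other settings and that of Slc1a4 in 26 of the 37 in which it was tested.

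On the higher side the largest differences also came with spread. Gcat, a mitochondrial enzyme of threonine breakdown, was 8.53, 9.57 and 11.45 against 5.14, 7.96 and 9.37, a difference of 2.20 ± 0.56 (adjusted p = 0.0401 by limma). Etnk1, an ethanolamine kinase, reached 11.35 in A11 and 7.27 to 8.20 in the other fast-cycling tumours (1.97 ± 0.51). Cald1, the actin-binding caldesmon, differed by 1.95 ± 0.47, with A2 at 8.75 inside the fast-cycling range, and by 0.27 to 0.75 at its 4 other probes, none called. Mns1, a flagellar and ciliary protein, differed by 1.84 ± 0.42. Without J4 and A5 the differences of Gcat, Etnk1 and Cald1 were 1.597, 1.946 and 1.927 over 13 tumours, and none was called (adjusted p of 0.0687, 0.0768 and 0.0631 by limma).

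The genes of antigen presentation by MHC class II were lower. Of 6 tested, 3 fell and none rose, against 1.01% and 2.1% of all genes. All 6 had negative differences with a median of -1.07. H2-Ab1, the beta chain of I-A, was 9.76, 10.41 and 11.42 in fast-cycling and 11.03, 11.68 and 12.38 in slow-cycling tumours. J14 and J8 were the highest fast-cycling tumours and overlapped with A4, J4 and J13, and the difference was -1.21 ± 0.29 (adjusted p = 0.0335 by limma). The 2 other probes of H2-Ab1 differed by -1.12 ± 0.31 and -0.31 ± 0.16 and were not called (adjusted p of 0.0534 and 0.267). H2-Eb1, the beta chain of I-E, differed by -1.32 ± 0.31, and H2-DMa, which helps load the peptides, by -0.82 ± 0.20 at its brightest probe and by -0.53 ± 0.22 at another, not called (adjusted p = 0.175). Cd74, the invariant chain, was 11.58 ± 0.66 (SD, n = 7) and 12.85 ± 0.79 (SD, n = 8) and missed the threshold at its brightest probe (adjusted p = 0.0575 by limma), while another of its 3 probes passed (-1.29 ± 0.33, adjusted p = 0.0387). Without J4 and A5 there were again 3 calls, but none with the chip as a fixed block or with host age as a covariate. In those 3 fits 85, 50 and 39 of all 10742 genes were lower. With each of the 15 tumours left out in turn, the call of H2-DMa ended 11 times, that of H2-Ab1 8 times and that of H2-Eb1 6 times. In bulk tumours fewer cells of a type and less RNA per cell cannot be told apart.

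Immune cell markers had mostly negative differences, none of them called. The mean over the MHC class II list ran from 8.47 to 9.90 in fast-cycling and from 9.83 to 11.25 in slow-cycling tumours. That of 11 macrophage genes ran from 7.88 to 8.82 and from 8.09 to 9.24, with a median difference of -0.26 and 0 calls, and 7 of the 11 genes were lower. The macrophage receptor Mrc1 was 7.44 ± 1.06 and 8.77 ± 1.02 (adjusted p = 0.130 by limma). Of 7 T and NK cell genes 6 were lower, with a median of -0.63, and their mean ran from 6.08 to 6.98 and from 6.40 to 8.19. Cd3d, of the T cell receptor complex, was 4.41 to 5.91 in fast-cycling tumours and reached 9.09 in J4. Cd79b, of the B cell receptor, was 4.45 to 5.52 and was detected on 2 of 7 fast-cycling and 7 of 8 slow-cycling arrays, with J4 highest at 8.57 (difference -1.43 ± 0.43, adjusted p = 0.0747). The part of immune cells in the MHC class II difference was not tested. With the macrophage mean as a covariate, a fit chosen after seeing the data, H2-Ab1 and H2-Eb1 kept their calls and H2-DMa did not. That mean holds no B or T cell genes, so this fit does not test the part of immune cells. The ligand Cd274 (PD-L1) differed by 0.22 ± 0.48.

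**Figure D4:**
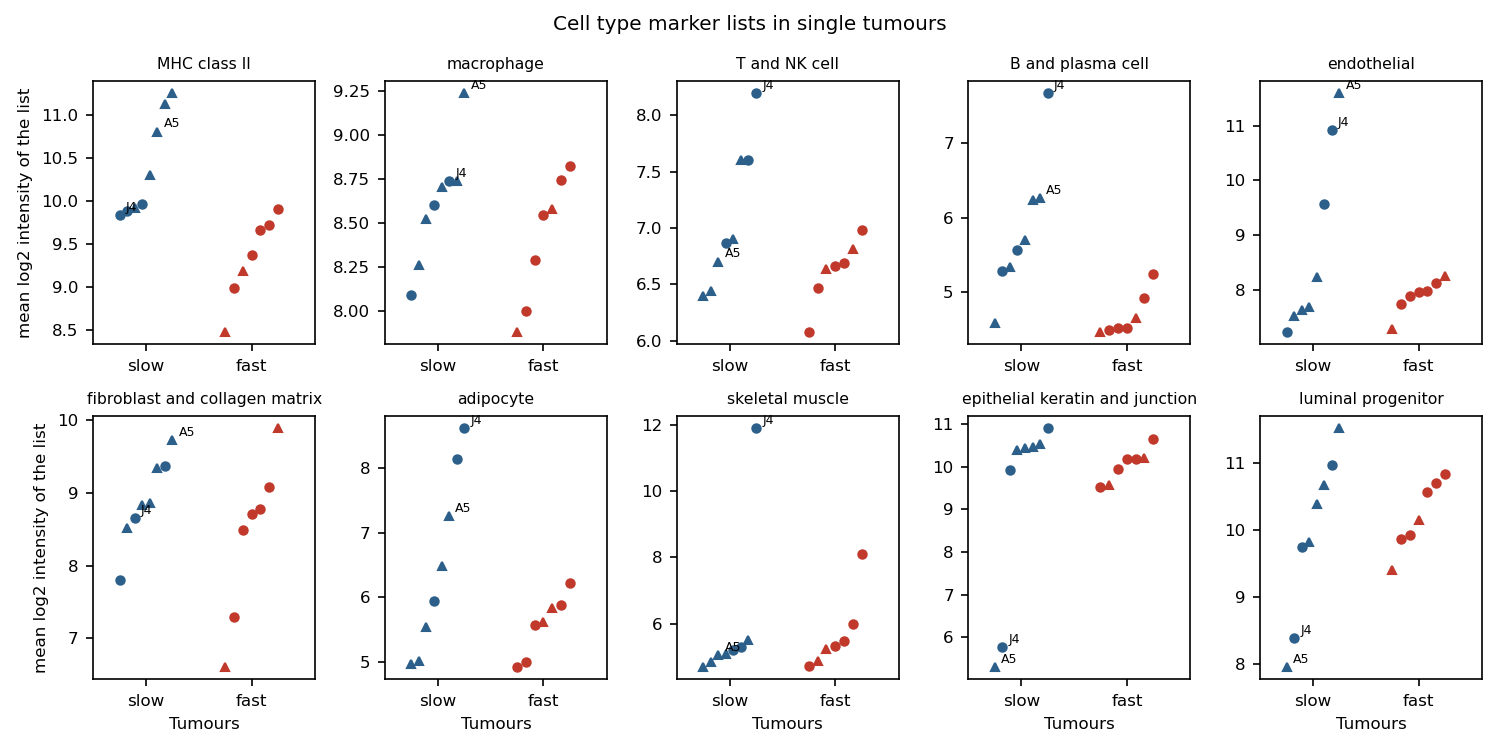
Mean log2 intensity of 10 cell type marker lists in single slow-cycling (blue) and fast-cycling (red) tumours, circles for juvenile and triangles for adult hosts, with J4 and A5 named. J4 and A5 lie apart with keratin means of 5.76 and 5.30 and endothelial means of 10.92 and 11.59, and in A2 the MHC class II mean is highest at 11.25.

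Stroma and epithelial lineage genes gave no call. Of 13 endothelial genes 12 had negative differences with a median of -0.82, and the list's mean was highest in J4 and A5. Tie1, an endothelial receptor, was 10.21 in J4 and 11.68 in A5, 8.12 in J13 and at most 6.73 in the other 12. Eng, endoglin, differed by -1.40 ± 0.54 (adjusted p = 0.143 by limma). Of 5 adipocyte genes all were lower with a median of -1.30, and their mean was highest in J4 at 8.62 and J12 at 8.14. In the collagen matrix list 11 of 16 genes were lower and the median was -0.40. Dcn, decorin, ran from 7.36 to 11.31 against 10.35 to 13.74 (-1.86 ± 0.62, adjusted p = 0.0974), and Col1a1, the main collagen chain, differed by -0.31 ± 0.84. The keratin and junction list had a median of 0.96, with J4 and A5 at the bottom as given above. Krt8, a luminal keratin, was 6.71 in J4 and 6.98 in A5 and 12.07 to 13.99 in the other 13. Vim, vimentin, was highest in the same pair, 13.00 and 13.66. Without J4 and A5 the difference of Krt8 was -0.74 in place of 0.86, and that of Vim 0.44 in place of -0.27.

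Lineage markers split each group rather than the comparison. The basal keratin Krt5 ran from 4.32 to 11.51 in fast-cycling and from 4.37 to 11.97 in slow-cycling tumours. Foxa1, a luminal pioneer factor, ran from 5.00 to 10.68 and from 4.42 to 11.77. Krt14, a second basal keratin, was 10.52 to 14.11 in fast-cycling tumours and 5.81 to 14.85 in slow-cycling ones. Esr1, the oestrogen receptor, was dim, with 3 of 7 and 5 of 8 arrays detecting it (difference -0.28 ± 0.30). Elf5, a luminal progenitor factor, differed by 1.75 ± 0.78 and the milk protein gene Csn3 by 2.12 ± 1.02, neither called (adjusted p of 0.198 and 0.234 by limma).

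Among 13 growth factor receptors and ligands none was called, and their median was -0.61. Met, the hepatocyte growth factor receptor, had the largest difference of the list and a pattern of 2 levels. It was 11.08 in J5, 10.98 in J15, 10.15 in J8 and 9.83 in J6, but 5.69 in J14, 5.27 in A11 and 4.85 in A8. Among slow-cycling tumours A2 was at 10.67 and the other 7 at 4.34 to 5.50. The difference of 2.81 ± 1.15 thus missed the threshold (adjusted p = 0.166 by limma), and the high and low level occurred in both groups. The receptor Fgfr3 differed by -1.40 ± 0.40 (adjusted p = 0.0592) and was detected on 2 of 7 fast-cycling arrays. Egfr and Erbb2 differed by 0.19 ± 0.57 and 0.27 ± 0.42.

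The Notch list held 1 lower gene of 10, against 1.01% of all genes, with a median of -0.69. Notch3, a receptor of vessel wall cells and of mammary luminal progenitors, was 5.59, 6.28 and 7.67 in fast-cycling and 7.21, 8.52 and 10.47 in slow-cycling tumours, with A5 and A4 highest, a difference of -1.92 ± 0.46 (adjusted p = 0.0331 by limma). That call ended in 20 of 38 other settings. Among them were the chip as a fixed block, host age as a covariate and the authors' processed values. It also ended without A4, J5, J6, J8 or J15 in turn. The ligand Jag2 differed by -1.76 ± 0.57 (adjusted p = 0.0929). Of 9 hypoxia genes 8 were higher, none called. The oxygen sensor Egln3 differed by 1.33 ± 0.50 and the angiogenic factor Vegfa by 0.74 ± 0.35, with A11 highest at 11.10.

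The 12 tumours between the thresholds measured the same genes in samples the comparison had not used. Their scores ran only from 8.56 to 9.11, and for each gene a slope on the score was fitted. No probe passed the threshold (0% of 19315, 1011 at an unadjusted p under 0.05 by limma). Of the 226 higher genes 210 had a positive slope (92.9%), against 47.7% of all 10742 genes, and of the 109 lower genes 102 had a negative slope (93.6%), against 52.3%. The median slope, in log2 intensity per unit of score, was 1.42 for the higher, -2.19 for the lower and -0.08 for all genes. Hmgb2 had a slope of 3.60, Smc2 of 2.69, Mcm10 of 1.25 and E2f1 of 1.06, while Ndc80, clearly higher in the comparison, had one of -0.05. Among lower genes Plcd3 had a slope of -4.63, Notch3 of -4.22, Cyp27a1 of -3.03 and H2-Eb1 of -2.65, whereas Map1b had one of 2.03 and Als2cl of 0.72. In the 8 of these tumours without a low Eef2 value the shares were 87.2% against 52.8% and 89.9% against 47.2%. There too no probe passed the threshold, and 4643 of the 19315 had an unadjusted p under 0.05 by limma. The score is the same one that chose the groups, so genes transcribed with the markers had to follow it here too. Genes are also not independent replicates, so these shares are a description and no separate support.

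**Figure D5:**
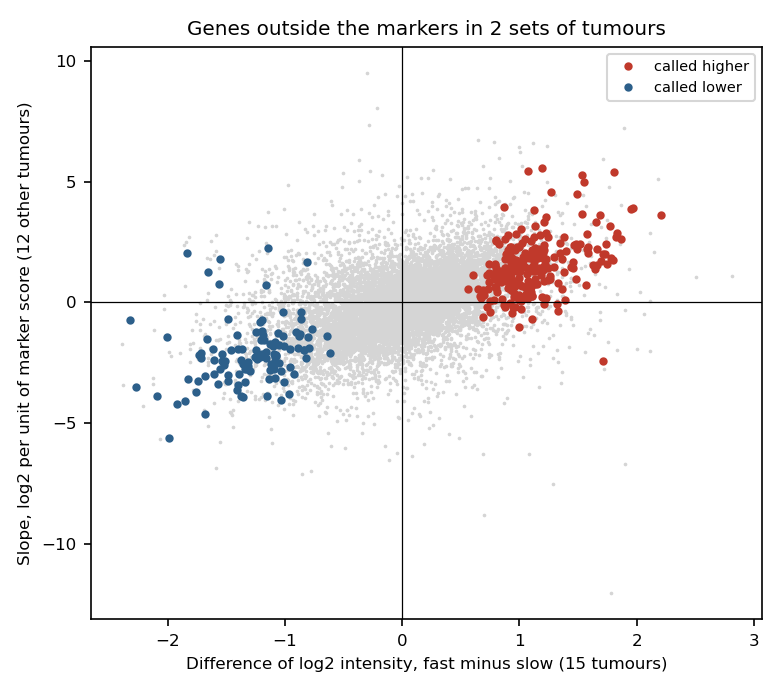
Each point is a gene outside the markers: the difference of log2 intensity between the 7 fast-cycling and 8 slow-cycling tumours (horizontal) and the slope on the marker score in the 12 tumours between the thresholds (vertical). Of the genes called higher (red) 210 of 226 lie above 0 and of those called lower (blue) 102 of 109 lie below 0.

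Whether the difference depended on host age was tested as an interaction in the 15 tumours. Among them each chip carried hosts of the same age, so host age and chip cannot be told apart in this test. No probe passed the threshold (0% of 19315, smallest adjusted p 0.323), and 1313 had an unadjusted p under 0.05 by limma. With 2 fast-cycling tumours of adult hosts, and medians of the SD within groups of 0.43 and 0.57, the precision of this test was limited. The adjusted p of the interaction was 0.712 for Met and 0.955 for Smc2.

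The promoters of the genes that moved can be set beside those printed at the start. Of the 226 higher genes 197 had an entry, and 24.4% of these held a CHR in the 250 bases before the start, against 10.6% of the 8658 entries of all genes and 8.24% of the 85 of lower genes. A CCAAT box was found in 43.1%, 36.2% and 32.9%, and an E2F-like motif in 16.8%, 13.8% and 14.1%. Among the 155 higher genes with an entry in neither the mitosis nor the S phase list, 23.2% held a CHR. These 155 still include cycle genes that the lists miss, such as Pclaf. Of the 84 entries of the lists, called or not, 25% held a CHR and 60.7% a CCAAT box. The median GC content was 59.6% for higher genes, 59.6% for all and 63.2% for lower genes. A match of these letters is a description of the sequence, and no binding was measured.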

How the data were processed

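RNA of 27 tumours was measured on Illumina mouse BeadChips, with 5 chips in all. Per the file headers, the deposited values are an average intensity for each probe and array and a detection p-value. The authors also deposited processed log2 values, whose sorted columns matched the quantile-normalized unsubtracted intensities to within 0.00855. Their tools were lumi and limma, per the submitters' processing notes, which give no settings here.

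Here the function neqc (limma 3.58.1, R 4.3.3) removed background, with control levels inferred from detection p-values and 16 added as offset, and quantile-normalized the arrays. The 19344 probes seen above background (detection p below 0.05) in 12 or more tumours were tested, and 29 of them belong to markers. Groups were set by the marker score and compared with lmFit and eBayes, two-sided, with Benjamini-Hochberg adjustment over all 19344 probes and a threshold of 0.05. A difference is fast minus slow on the log2 scale. Each gene is given by its brightest detected probe. Symbols come from the platform annotation (34885 of 45281 probes with 1 symbol, 18 with several, 10378 with none). Other probes of a gene are given where they were tested and matter. The median SE over the tested probes outside the markers was 0.27. P-values measure the spread between these samples.

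Named genes are, for either direction, 10 chosen by p and 5 chosen by size of difference among those called, up to 4 members of each list with the smallest p, and 24 preset genes, of which 22 were tested and 2 (Pgr and Ptprc) were detected on too few arrays. Not every gene that this rule allows is described. Members, lists and thresholds were chosen with earlier results of these data known. Promoters and positions are from RefSeq on GRCm38.p6, and the 250 bases before the start were searched.

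Alternatives covered the background correction, normalization, offset, probe filter, chip, host age, tissue scores as covariates, array weights, tumours left out and other groupings. The limma comparison was tested on simulated data. Figures were drawn with matplotlib 3.10.9.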

Additional observations from a re-analysis of the deposited data

Results flagged for a closer look

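In groups of 7 or 8 tumours, a tumour was looked at again where its gap to the next was large for the range of its group (Dixon's ratio). Chance gives about 1 flag in 20 groups, 13.4 of the 268 looked at, and 22 were found. No explanation of these values was tested.

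Among fast-cycling tumours A11 gave the most. Etnk1 was 11.35 there against at most 8.20 in the others, Vegfa 11.10 and the mean of the immediate early genes 9.76. The lowest values of Cyp27a1 (5.14), Map1b (5.99), Dcn (7.36), Cdkn1b (5.64) and Eng (6.30) were also in A11.

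A8 had the highest marker score (9.81), the highest Cdca3 (11.82), the highest mean of G1 to S genes (9.28), and the lowest H2-DMa (8.29) and Elf5 (6.93). In J14, Slc1a4 (8.09), Fgfr3 (6.40) and the mean of 2 skeletal muscle genes (8.10) were highest. In J15, Gar1 (13.09) and the mean of 4 blood genes (11.02) were highest.

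Among slow-cycling tumours, J4 had the highest mean of skeletal muscle genes, 11.89 against at most 5.51 in the others, and the highest Cd3d (9.09). A5 had the lowest Ccnd1 (11.80). Met was 10.67 in A2 and at most 5.50 in the other 7.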

How the results depend on the processing

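The number of probes called changed between fits more than their direction did. Each of the 472 higher and 207 lower probes kept its sign in every alternative that measured it, except within chip 2, 4 or 5. There 461 to 471 and 203 to 205 did. All these fits share tumours with the comparison that chose the probes. A kept sign was thus close to given and is no separate support. The counts of higher and lower probes were 183 and 88 with median scaling, 273 and 74 with no filter on dim probes, 318 and 104 with all 27 tumours and a middle group, and 200 and 40 with the score as a continuous covariate over 27 tumours. They were 161 and 75 with the chip as a fixed block, 205 and 75 with host age as a covariate, and 321 and 106 with the collagen matrix score as a covariate. Within chip 2, where J4 is the single slow-cycling tumour and is assumed to vary like the others, they were 426 and 599, 40 and 20 of them shared with the main ones. They were 0 and 0 within chip 4 (2343 probes at an unadjusted p under 0.05 by limma), 4 and 4 within chip 5, 14 and 8 in juvenile hosts alone, 0 and 0 in adult hosts alone (1822 unadjusted), and 0 and 0 with stricter groups of 2 and 6 tumours (1481 unadjusted). With single tumours left out they ran from 194 to 519 and from 55 to 332. Higher counts moved by over 1.5 times without A4 (252), J5 (270), J6 (263), J8 (219), A5 (256), J15 (194) or A8 (288), and lower counts without A4 (82), J5 (101), J6 (94), J8 (69), A5 (97), J15 (55), A8 (105), A11 (98) or A7 (332). Without J4 and A5 they were 327 and 145, and with the macrophage mean as a covariate 364 and 146, both chosen after seeing the data. The interaction with host age called 1 probe with the chip as a block, where the term of chip 4 could not be estimated and was dropped. Of the 46 called genes described, 29 kept their call without any single tumour, 39 without J4 and A5, 24 with the chip as a fixed block and 31 with host age as a covariate, and all 46 kept their sign. Other counts stayed within 1.5 times of the main ones. Why counts moved was not tested, and the smaller fits also held fewer tumours. Dim probes, detected on few arrays of a group, limit the genes they stand for. No paired analysis was possible because the fast-cycling and slow-cycling tumours share a single replicate number, and such numbers are those of different tumours.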

Other observations

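Other genes called were grouped after their values had been seen, so these groups are descriptions without a test. Over all 10742 genes 2.1% were called higher and 1.01% lower. Since called genes prompted the groups, nothing is read from how their counts compare with these shares. Of 21 nuclear pore and import genes 6 were higher and none lower, with a median difference of 0.49. Kpna2, an importin alpha, was 5.96 in fast-cycling and 4.80 in slow-cycling tumours (1.16 ± 0.20, adjusted p = 0.00606 by limma). Seh1l, Nup37 and Nup54, which belong to the pore, differed by 1.05 ± 0.19, 1.23 ± 0.23 and 1.13 ± 0.23. The pore gene Nup133 had a negative difference of -0.21 ± 0.28. Of 13 H2A histone genes 5 were higher, among them H2ac21 (1.59 ± 0.34), but these copies are near-identical and a probe may read several of them.

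Of 28 genes of mTOR signalling, autophagy and lysosomes, 8 were lower and none higher, with a median of -0.31. Mtor, the kinase itself, differed by -1.09 ± 0.25 (adjusted p = 0.0263 by limma), Ulk1, which starts autophagy, by -1.12 ± 0.24, and Slc38a9, a lysosomal amino acid sensor, by -1.02 ± 0.25. Lysosomal Lamp1, Lamp2 and Ctsb differed by 0.12 ± 0.32, -0.03 ± 0.23 and -0.06 ± 0.23. Of 11 genes of the liver X receptor and sterol export 4 were lower and 0 higher, with 9 negative and 2 positive differences and a median of -0.43. The positive ones, Npc2 (0.84 ± 0.28) and Npc1 (0.29 ± 0.31), were not called. The receptor Nr1h3 differed by -1.52 ± 0.40, the sterol exporter Abcg1 by -1.49 ± 0.40 and Mertk, a receptor for engulfing dead cells, by -1.46 ± 0.39. Apoe, a further target of the receptor, differed by -0.43 ± 0.27 and was not called. These are also genes of macrophages, whose list is given in the report, and the part of those cells was not tested.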
